A study of Mus musculus with 7 samples.

Results

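Upper layer cortical neuron genes are genes transcribed mainly in neurons of cortical layers 2 to 4. The 8 genes described here, Cux1, Cux2, Rasgrf2, Rorb, Otof, Rspo1, Scnn1a and Calb1, were selected by name from 54532 genes in the deposited tables. The selection rule uses no measured value, but earlier results of these data were known when it was made. Each symbol matched 1 row, and all 8 passed the filter on low counts that left 16308 genes for testing. RNA was sequenced from motor cortex in 3 wild-type (WT) and 4 conditional knockout (cKO) mouse samples, 1 library each. Both genotypes carried the same virus, named GA100, given into the lateral ventricles of both sides on postnatal day 0, and tissue was taken 3 months later, after behavioural tests. By its title the study concerns C9orf72 poly-GA mice and TIA1, an RNA-binding protein of stress granules. The deleted gene, its deleted exons and the Cre driver are not in the labels. No uninjected group was analysed here, so each comparison is between genotypes under the virus. Whether every library is a different animal is not stated, and the p-values below cover only the spread among the 7 libraries, which may be technical.

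Neurons of layers 2 and 3 send axons to other cortical areas and across the corpus callosum, and layer 4 neurons receive thalamic input. Layer 4 is thin in motor cortex and thick in the adjoining sensory cortex, so the levels of layer 4 genes also depend on where tissue is taken. Several of the genes are transcribed elsewhere too: Calb1 in interneurons, striatum and olfactory bulb, and Cux1 in most cell types. In bulk tissue, fewer cells of a type and less RNA per cell cannot be told apart.

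Library totals ran from 15181390 to 16463721 counts. Tia1, the gene named in the title, stood at 60.6 to 95.8 CPM (counts scaled to a common library size, adjusted by TMM factors) in WT and 72.7 to 81.9 CPM in cKO. It was not lower in cKO (log2 fold change 0.07, edgeR adjusted p = 0.914), so it gave no check of the genotype labels, and WT and cKO below mean the libraries so labelled. Every gene in the lists for layers 5 and 6 and for general excitatory neurons had counts. The library of cKO replicate 3 stood apart. Its 6 olfactory bulb genes summed to 157 CPM against 4.45 to 6.33 CPM in the other libraries, and Cdhr1, a cadherin of mitral and tufted cells in that bulb, had 103 CPM against 1.06 to 2.53. Its mitochondrial share was the highest (7.54%, against 5.50% to 6.40%), and it held the lowest value of the 7 libraries for 24.0% of the genes tested and the highest for 24.9%. Values are therefore given with and without this library. WT replicate 1 and cKO replicate 1 carried Xist and no Ddx3y counts, and the other 5 libraries carried Ddx3y.

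No upper layer gene passed the test between cKO and WT. In edgeR's quasi-likelihood test with Benjamini-Hochberg adjustment, 0 of 8 had an adjusted p under 0.05, against 0.0% of all genes tested. At an unadjusted p under 0.05 there was 1 of 8, Scnn1a, with a higher value, against 7.14% of all genes tested in either direction (4.22% higher and 2.91% lower in cKO). Without cKO replicate 3 there were 2 of 8, Cux2 and Scnn1a, against 9.55%, and 0 of 8 had an adjusted p under 0.05. Log2 fold changes, cKO minus WT throughout, were positive for 6 and negative for 2, with a median of 0.05, against 51.8% positive and a median of 0.01 over all genes tested. The 2 groups overlapped for all 8 genes, while 7.38% of genes tested had groups that did not. DESeq2, which called 0.0736% of all genes, gave Otof, Rspo1 and Scnn1a no adjusted p and called 0 of the other 5. Limma-voom and the fit with the replicate number as a block called 0 of 8, against 0.0% and 0.0123% of all genes.

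**Figure D1:**
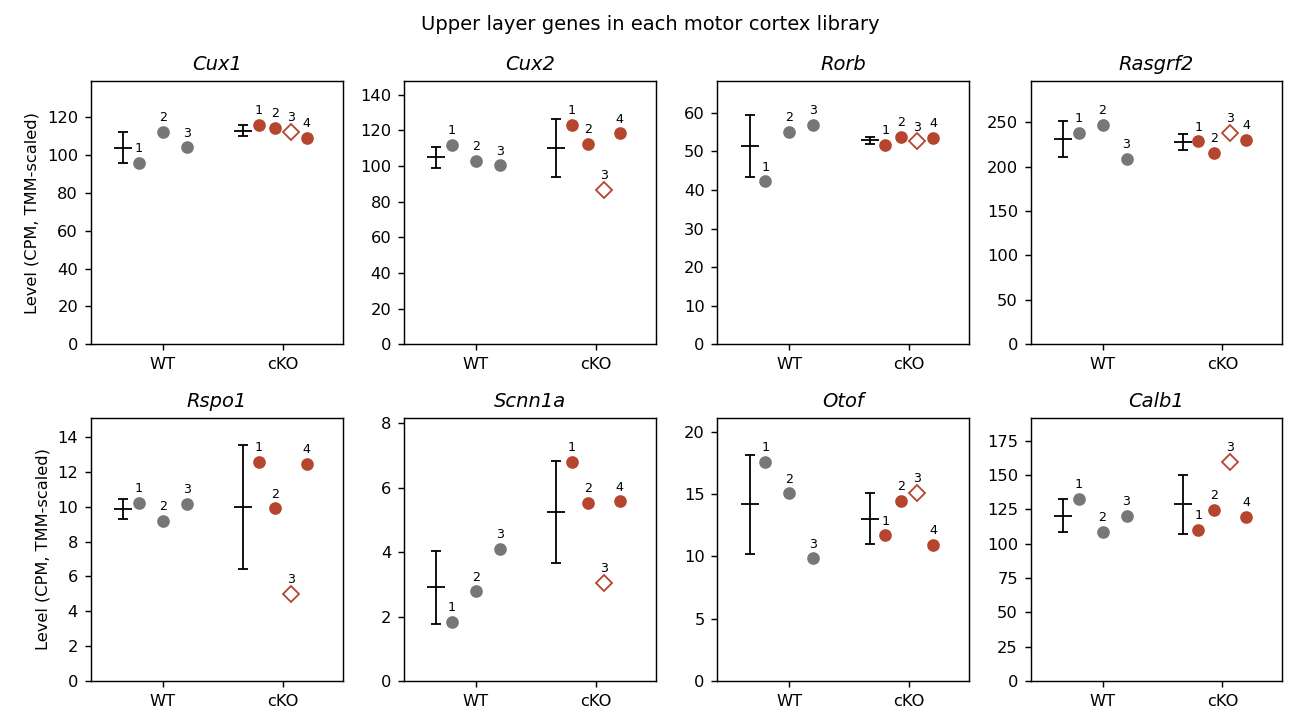
Level of each of the 8 genes in CPM (vertical axes from 0) in the 3 WT and 4 cKO libraries, with replicate numbers above the points and cKO replicate 3 as an open diamond; bars show mean and SD. Scnn1a has its 3 highest values in cKO, and cKO replicate 3 is the lowest library for Cux2 and Rspo1 and the highest for Calb1.

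Levels can be compared between genes on the deposited FPKM values, which are per kilobase of gene length. Over the 7 libraries Calb1 had 25.8 ± 3.70 FPKM (SD, n = 7) and Rasgrf2 24.7 ± 1.48 FPKM. These were the highest of the 8, and Calb1 was above Rasgrf2 in 4 of 7 libraries. Cux2 followed with 10.7 ± 1.17 FPKM, below Rasgrf2 and above Cux1 in every library. Cux1 (5.42 ± 0.327 FPKM), Rspo1 (5.10 ± 1.29 FPKM) and Rorb (4.70 ± 0.418 FPKM) lay close together, with ranges that overlapped between neighbours. The deposited length of Cux1 is 20024 bases, for a locus with 14 annotated transcripts, and that of Cux2 is 10082 bases. Mean levels not divided by length were 109 CPM for Cux1 and 108 CPM for Cux2, so their FPKM order rests on these lengths. Otof had 1.70 ± 0.355 FPKM and Scnn1a 1.02 ± 0.428 FPKM, and their ranges overlapped. The mean of Scnn1a was 0.702 ± 0.275 FPKM in WT (SD, n = 3) and 1.26 ± 0.374 FPKM in cKO (SD, n = 4), while Cux2 had 10.4 ± 0.620 and 10.8 ± 1.55 FPKM.

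Of the transcription factors, Cux1 (ENSMUSG00000029705, chr5:136248135-136567490, minus strand, mm10) encodes a homeodomain protein, and its locus also gives rise to CASP, a Golgi protein without the homeodomain. Counts over the whole gene do not separate them. Cux1 stood at 95.8, 112 and 104 CPM in WT replicates 1 to 3 and at 116, 114, 112 and 109 CPM in cKO replicates 1 to 4. In 3 cKO libraries it was above every WT value, in replicate 3 by less than 0.1 CPM, and cKO replicate 4 fell within the WT range. The cKO to WT log2 fold change was 0.12 ± 0.08 (SE; edgeR adjusted p = 0.756), and its 95% interval allowed levels in cKO between 0.969 and 1.22 times those in WT.

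Cux2 (ENSMUSG00000042589, chr5:121856366-122050102, minus strand) is the paralogue that marks upper layer neurons more narrowly and shapes their dendrites and spines. Its levels were 112, 103 and 100 CPM in WT and 123, 112, 86.6 and 118 CPM in cKO. The groups overlapped through cKO replicate 3, the lowest of all libraries. With every library the log2 fold change was 0.07 ± 0.11 (SE; edgeR adjusted p = 0.907). Without cKO replicate 3 it was 0.16 ± 0.07 (SE), with an unadjusted p of 0.0434 and an edgeR adjusted p of 0.515, and each remaining cKO value lay above each WT value (112.3 against 111.7 CPM at the nearest). At 3 libraries against 3, 13.7% of all genes tested had groups that did not overlap, and 7.69% did so with higher values in cKO.

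Rorb (ENSMUSG00000036192, chr19:18930605-19111196, minus strand) encodes a nuclear receptor that helps set up layer 4 identity and barrel patterning in sensory cortex. It had 42.2, 55.1 and 56.9 CPM in WT and 51.7, 53.7, 52.6 and 53.5 CPM in cKO. The cKO libraries lay within 2 CPM of each other, and the WT spread came from replicate 1. Its log2 fold change was 0.04 ± 0.10 (SE; edgeR adjusted p = 0.942) and turned to -0.09 without WT replicate 1.

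Of the signalling genes, Rasgrf2 (ENSMUSG00000021708, chr13:91880400-92131656, minus strand) encodes a calcium-dependent exchange factor for Ras and Rac and is a marker of layer 2/3. It was the highest of the 8 on the CPM scale, with 238, 247 and 208 CPM in WT and 228, 215, 238 and 230 CPM in cKO. All cKO values fell inside the WT range. Its log2 fold change was -0.02 ± 0.08 (SE; edgeR adjusted p = 0.967), with a 95% interval from 0.874 to 1.11 times the WT level, and its sign turned without WT replicate 2 (0.02).

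Rspo1 (ENSMUSG00000028871, chr4:124986430-125009099, plus strand) encodes R-spondin 1, a secreted protein that strengthens Wnt signalling, and its cortical transcripts mark layer 4. It had 10.2, 9.20 and 10.2 CPM in WT and 12.6, 9.91, 5.01 and 12.5 CPM in cKO. The WT libraries were nearly equal, while cKO replicate 3 lay below each of the other 6 libraries. For Rspo1 the log2 fold change was 0.02 ± 0.25 (SE; edgeR adjusted p = 0.989) with every library and 0.24 ± 0.14 (SE; edgeR adjusted p = 0.628) without cKO replicate 3. It was -0.12 without cKO replicate 1, -0.11 without cKO replicate 4 and -0.17 with the replicate number as a block. Number 4 occurs only in cKO, so the block fit also takes no genotype difference from cKO replicate 4. With limma-voom on all libraries the Rspo1 value was -0.051. The sign of the Rspo1 difference thus depended on single libraries and on the model.

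The letters upstream of 1 start each of Cux2 and Rspo1 are shown because both genes were lowest in cKO replicate 3. They come from the RefSeq table for GRCm38.p6, the same assembly as mm10, which held 5 of the 8 genes, with a pair of starts each for Cux2 and Rorb. The 250 bases before a start were searched on both strands for AGGTCA, the half-site bound by ROR and other nuclear receptors, for ATCGAT, a core recognised by CUX proteins, and for TATAAA. Capitals mark the matches. The Cux2 window lies at chr5:122047826-122048075 on the minus strand, before the inner of its starts, and the Rspo1 window at chr4:124986180-124986429 on the plus strand. The reason given above does not choose between the Cux2 starts, and the window printed is the one that held matches.
Cux2: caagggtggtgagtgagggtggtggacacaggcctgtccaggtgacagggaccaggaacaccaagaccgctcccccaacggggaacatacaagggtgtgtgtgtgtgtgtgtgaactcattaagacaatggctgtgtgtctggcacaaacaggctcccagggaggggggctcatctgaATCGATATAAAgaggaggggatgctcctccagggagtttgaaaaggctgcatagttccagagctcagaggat
Rspo1: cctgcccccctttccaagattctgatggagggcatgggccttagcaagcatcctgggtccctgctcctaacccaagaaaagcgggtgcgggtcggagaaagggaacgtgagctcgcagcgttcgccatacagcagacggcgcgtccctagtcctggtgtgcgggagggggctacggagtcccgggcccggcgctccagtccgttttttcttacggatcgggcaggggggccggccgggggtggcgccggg
ATCGAT began 72 bases and TATAAA 67 bases before this Cux2 start, sharing 1 base, and no other window of the 5 genes held either string. ATCGAT occurs in 0.728% and TATAAA in 12.4% of all 32851 windows in the table, each cut to the 250 bases before its start. AGGTCA, present in 14.0% of windows, was in 0 of the 7 windows of these genes. The windows also differed in composition: the inner Cux2 window had 55.2% G and C and 3 CpG pairs, and the Rspo1 window 66.8% and 22. The window of the outer Cux2 start, at chr5:122049852-122050101 and not printed, had 80.0% and 40, so the Cux2 starts lay on either side of Rspo1. These stand beside a median of 52.4% and 6 over all windows.

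Of the channel and calcium genes, Scnn1a (ENSMUSG00000030340, chr6:125320659-125344943, plus strand) encodes the alpha subunit of the epithelial sodium channel and marks layer 4 neurons in mouse cortex. It differed most between the groups, at a low level. Counts were 30, 45 and 62 in WT and 113, 83, 45 and 89 in cKO, which gave 1.84, 2.78 and 4.09 CPM in WT and 6.81, 5.52, 3.04 and 5.58 CPM in cKO. WT replicate 1 was the lowest library, and only cKO replicate 3 lay within the WT range. The mean was 2.90 ± 1.13 CPM in WT (SD, n = 3) and 5.24 ± 1.58 CPM in cKO (SD, n = 4). The log2 fold change was 0.86 ± 0.31 (SE), a 1.81-fold difference with a 95% interval from 1.14 to 2.88. It did not pass the threshold (unadjusted p = 0.0158, edgeR adjusted p = 0.691; exact two-sided permutation p = 0.114, where 0.0571 is the smallest this design allows).

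Without cKO replicate 3 the Scnn1a groups separated, with 5.97 ± 0.730 CPM in cKO (SD, n = 3) and a log2 fold change of 1.04 ± 0.25 (SE), and the edgeR adjusted p was 0.178. With any other single library left out, the log2 fold change ran from 0.61 (without WT replicate 1) to 1.18 (without WT replicate 3). With no filter on low counts the edgeR adjusted p was 0.0441, a setting in which 0.633% of all genes were called. Against Rorb, another layer 4 gene, Scnn1a counts amounted to 4.35%, 5.04% and 7.20% of Rorb counts in WT and to 13.2%, 10.3%, 5.79% and 10.4% in cKO. Summed levels of 8 oligodendrocyte genes shared with Scnn1a the lowest library of each group but not the highest: 3857, 5995 and 5378 CPM in WT and 6939, 8312, 4182 and 7354 CPM in cKO. Within WT both were lowest in replicate 1, and the sum peaked in replicate 2 but Scnn1a in replicate 3. Within cKO both were lowest in replicate 3, and the sum peaked in replicate 2 but Scnn1a in replicate 1. All 8 oligodendrocyte genes had positive log2 fold changes (51.8% of all genes tested), 0 of them called, with a median of 0.35. Without cKO replicate 3 their median was 0.53, again with 0 called. At an unadjusted edgeR p under 0.05 there were then 7 of 8, all higher in cKO, against 9.55% of all genes in either direction. The part of the oligodendrocyte genes in the Scnn1a difference was not tested.

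**Figure D2:**
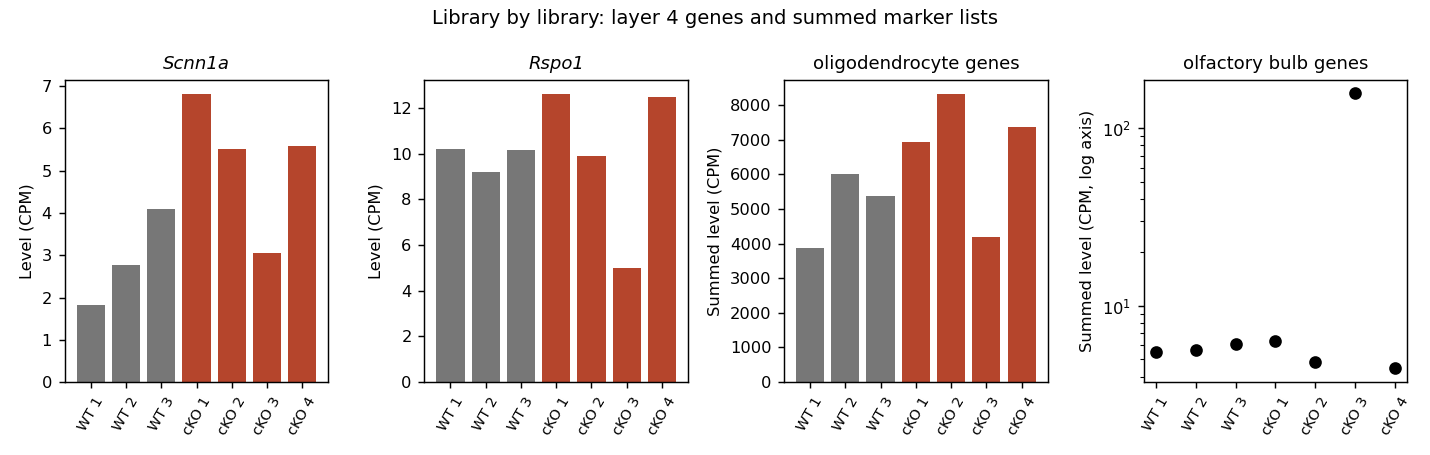
Levels of Scnn1a and Rspo1 and the summed levels of 8 oligodendrocyte genes (bars from 0, grey for WT, red for cKO) and of 6 olfactory bulb genes (points, log axis), in CPM per library. Scnn1a and the oligodendrocyte sum are both lowest in WT replicate 1, and within cKO both are lowest in replicate 3, the library with 157 CPM of olfactory bulb genes.

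Otof (ENSMUSG00000062372, chr5:30367062-30461932, minus strand) encodes otoferlin, a calcium sensor of vesicle release best known from inner hair cells, and is transcribed in layer 2/3 neurons. It had 17.6, 15.1 and 9.84 CPM in WT and 11.7, 14.4, 15.1 and 10.9 CPM in cKO. All cKO values fell inside the WT range. Its log2 fold change was -0.13 ± 0.19 (SE; edgeR adjusted p = 0.904), and without WT replicate 1 it was 0.06.

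Calb1 (ENSMUSG00000028222, chr4:15881264-15908064, plus strand) encodes calbindin, a calcium buffer of layer 2/3 neurons, some interneurons, striatal neurons and periglomerular cells of the olfactory bulb. Its levels were 133, 109 and 120 CPM in WT and 110, 125, 160 and 120 CPM in cKO. The highest was cKO replicate 3, and the other cKO libraries lay within the WT range. The log2 fold change was 0.09 ± 0.12 (SE; edgeR adjusted p = 0.883), and without cKO replicate 3 it was -0.04 ± 0.08 (SE). In that library 10 inhibitory neuron genes summed to 1375 CPM, against 866 to 1059 CPM in the others. Of these 10, 4 were at their highest there (Gad1, Gad2, Slc32a1 and Calb2) and 3 at their lowest (Pvalb, Lhx6 and Npy). All 6 olfactory bulb genes were at their highest in cKO replicate 3. Striatal neuron genes summed to 1845 CPM there and to 2321 CPM in cKO replicate 2, against 1312 to 1631 CPM in the other 5 libraries. The part of these cells in the Calb1 level was not tested.

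**Figure D3:**
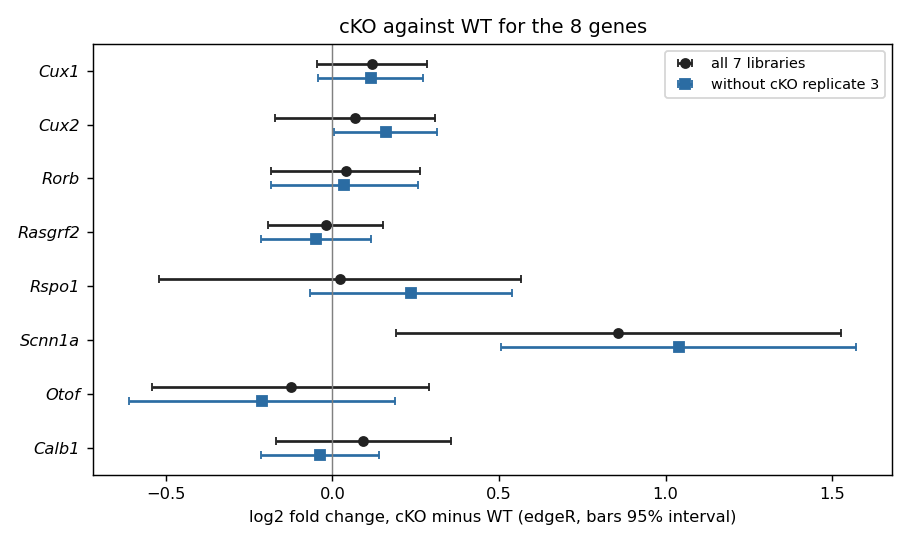
Log2 fold change of each gene, cKO minus WT, from edgeR with its 95% interval, for all 7 libraries (black circles) and without cKO replicate 3 (blue squares). With all libraries only the Scnn1a interval excludes 0; without cKO replicate 3 the lower bound of Cux2 is just above 0 (0.01) and the Calb1 value turns to -0.04.

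The 8 genes did not move as 1 block from library to library. WT replicate 1 was lowest for 3 of them (Cux1, Rorb and Scnn1a), WT replicate 2 for 1 (Calb1), WT replicate 3 for 2 (Rasgrf2 and Otof) and cKO replicate 3 for 2 (Cux2 and Rspo1). Over all genes tested cKO replicate 3 was the lowest for 24.0%, so 2 of 8 is near the background. In cKO replicate 3 the log2 CPM lay 0.92 below the gene mean for Rspo1, 0.34 for Scnn1a and 0.31 for Cux2, and 0.36 above it for Calb1, while Rorb and Cux1 lay 0.01 and 0.04 above it. The coefficient of variation over the 7 libraries ran from 5.90% for Rasgrf2 to 42.4% for Scnn1a. It was 2.59 (Rorb) to 6.16 (Calb1) times what counting error alone gives.

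**Figure D4:**
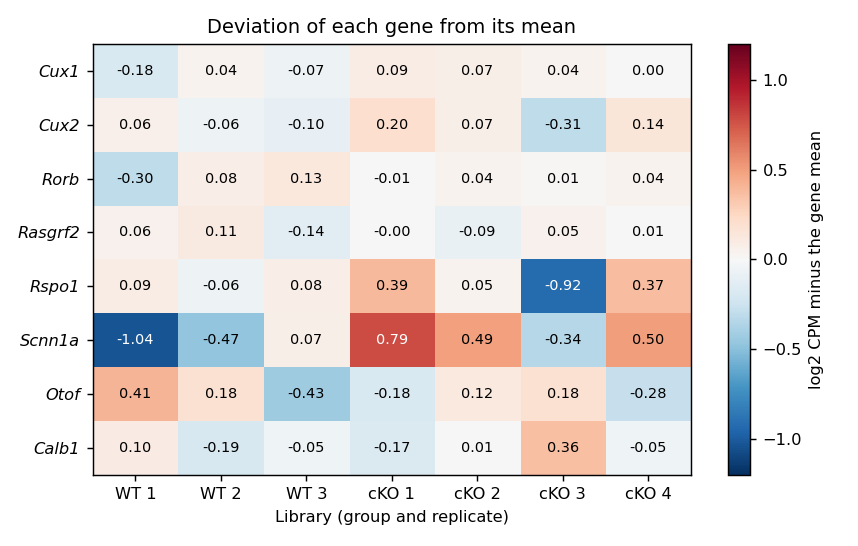
Log2 CPM of each gene (rows) in each library (columns) relative to the average of that gene across all 7, red above and blue below. Scnn1a and Rspo1 vary most, from -1.04 to 0.79 and from -0.92 to 0.39, and the transcription factors and Rasgrf2 vary by at most 0.31 to either side.

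The genes with the pattern most like that of Scnn1a, Rspo1 and Otof, the 3 most variable, were found by the root mean square difference of centred log2 CPM over the 7 libraries, among 14967 genes with a mean of at least 1 CPM. For Scnn1a these were Cfap70 (0.12), Enpp6 (0.15), Gm44866 (0.19), Gm19935 (0.21) and C030029H02Rik (0.23). Enpp6, a choline phosphodiesterase of the oligodendrocyte lineage, had 5.63, 9.45 and 11.03 CPM in WT and 16.3, 15.9, 9.06 and 13.8 CPM in cKO. For Rspo1 they were Gm12992 (0.12), Rsph10b (0.12), 4933439C10Rik (0.12), Izumo4 (0.13) and Pabpn1 (0.13), each with its lowest value in cKO replicate 3. For Otof they were Rsg1 (0.11), Trappc6a (0.13), Lpar6 (0.13), 1700037H04Rik (0.13) and Tmem19 (0.13). No other upper layer gene came as near: Cux2 was the nearest to Rspo1 (0.27), Rasgrf2 to Otof (0.24) and Rorb to Scnn1a (0.54). The nearest of 14967 genes are likely to lie closer than the nearest of a few. These values therefore do not measure how alike the upper layer genes are.

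A list of 18 other layer 2 to 4 genes had 8 positive and 10 negative log2 fold changes, a median of -0.03 and 0 called. At an unadjusted p under 0.05 there were 3 of 18, against 7.14% of all genes tested. Unc5d, a netrin receptor, had 0.34 ± 0.12 (SE), Inhba, an activin subunit, 0.53 ± 0.19, and Matn2, a matrix protein, -0.33 ± 0.11; each had an edgeR adjusted p of 0.679 or 0.691. The most abundant were Lamp5 (-0.04 ± 0.13) and the POU factor Pou3f3 (-0.03 ± 0.10), and both turned positive without cKO replicate 3. Upper layer genes of either list thus gave medians near 0, while 8 of 12 layer 5 genes (median -0.17) and 8 of 8 general excitatory neuron genes (median -0.23) had negative values, and layer 6 and subplate genes were split 5 to 5. At an unadjusted p under 0.05 with lower values stood the layer 5 genes Sulf2, Ldb2, Fezf2 and Crym (-0.25, -0.33, -0.41 and -0.41) and the excitatory genes Slc17a7, Neurod6, Neurod2 and Emx1 (-0.30, -0.32, -0.22 and -0.37). These are 4 of 12 and 4 of 8 genes, against 2.91% of all genes tested that were lower at that level, and edgeR called 0 of them. Of layer 6, Syt6 had 0.45 at that level, with its highest value in cKO replicate 3, and 0.22 without that library. With no filter on low counts edgeR called Inhba, Crym and Syt6 (adjusted p = 0.0017, 0.034 and 0.0060). The difference between the upper layer genes and these lists was not tested.

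Set against the excitatory genes of the same library, the mean log2 CPM of the 8 genes was 0.37 higher in cKO than in WT. It lay between -0.28 and -0.11 around the mean of all libraries in WT and between 0.10 and 0.24 in cKO, with no overlap. Without Scnn1a the difference was 0.26, and the groups again did not overlap (-0.26 to -0.05 in WT, 0.01 to 0.19 in cKO). The mean log2 CPM of the excitatory genes alone kept the groups apart, at 7.26 to 7.37 in WT and 6.96 to 7.23 in cKO. That of the 8 genes alone did not, at 5.28 to 5.34 in WT and 5.27 to 5.52 in cKO. The separation thus rests mainly on the genes subtracted, whose median log2 fold change was -0.23, against 0.05 for the 8 genes. Relative to the excitatory mean, all 8 differences were positive gene by gene, with a median of 0.30. For 2 of 8, Cux1 and Cux2, the groups did not overlap. Over all genes tested the median was 0.25, and 23.5% lay without overlap on the higher side. The median of the 8 genes thus lay near that of all genes on this scale. Without cKO replicate 3 there were 4 of 8 without overlap, against 28.1%. The other layer 2 to 4 genes gave 0.23 on the same scale and the inhibitory neuron genes 0.36, and in both lists the groups did not overlap either. With cKO replicate 3 left out, these lists gave 0.16 and 0.24, and the 8 genes 0.38. Layer 6 genes gave 0.30 and layer 5 genes 0.11, with overlap, and without cKO replicate 3 these were 0.13 and 0.06.

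**Figure D5:**
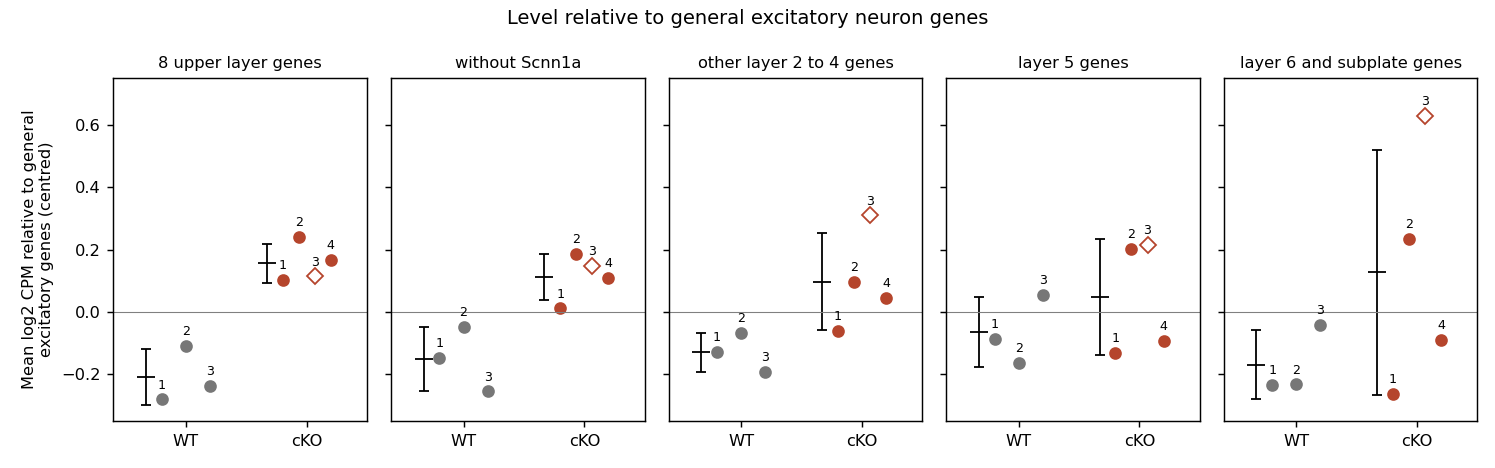
Mean log2 CPM of each gene list minus the mean of 8 general excitatory neuron genes in the same library, centred on the mean of the 7 libraries, with replicate numbers, means and SD bars. The 8 upper layer genes lie above 0 in all 4 cKO libraries and below 0 in all 3 WT libraries. The groups also stay apart for the other layer 2 to 4 genes (WT at most -0.07, cKO at least -0.06) and overlap for the layer 5 and layer 6 lists. The subtracted excitatory mean itself differs between the groups without overlap (7.26 to 7.37 in WT, 6.96 to 7.23 in cKO).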

How the data were processed

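Motor cortex RNA was sequenced from 3 WT and 4 cKO samples. The authors deposited raw gene counts and FPKM values for the same 54532 genes. The build is mm10, and the tools listed are DESeq2 1.20.0 and featureCounts 1.5.0-p3, per the submitters' processing notes. Aligner and strand setting: not given in the sources used here. Thus antisense genes that overlap Cux1, Cux2 and Rspo1 cannot be told apart from them. Coordinates of all 8 genes equal those of GENCODE release M21.

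Counts were fitted with edgeR 4.0.16 in R 4.3.3 (TMM, filterByExpr, quasi-likelihood F test, genotype as the factor) over all genes and adjusted by the Benjamini-Hochberg method, with a threshold of 0.05. The fit was tested on simulated data. SE is the log2 fold change over the root of F, and log2 CPM used a prior count of 2. Exact permutation tests used SciPy 1.17.1. Alternatives were other scalings and filters, DESeq2 1.42.0, limma 3.58.1 (voom, and trend on log2(FPKM + 1) and log2(FPKM + 0.1)), Ddx3y as a covariate, a replicate block and left-out libraries.

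Members and lists were chosen with earlier results of these data known. Besides the 8 genes, the rule named for each list any gene past the threshold; a list without one gave its 2 most abundant genes and, in each direction, the 1 of smallest p. Inhba, Ldb2, Fezf2, Crym, Neurod2, Emx1, Cdhr1 and the other genes of single libraries were named after their values were seen. For same-numbered WT and cKO libraries, deviations from group means correlated at 0.110, 0.128 and 0.122. These passed a limit of 0.1, and the numbers served as a block in an alternative fit only. The main fit did not pair libraries. The meaning of a number is not stated, and libraries of unlike number reached as much. WT replicate 1 with cKO replicate 3 gave 0.129, and WT replicate 2 with cKO replicate 4 gave 0.210. No 2 libraries agreed within sampling noise (chi-square per degree of freedom 4.42 to 23.1).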

Additional observations from a re-analysis of the deposited data

Results flagged for a closer look

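In 45 sets of 4 cKO values examined for a sample far from the others, chance gives about 1 in 20. There were 2. Members and lists were chosen with earlier results of these data known, so this count cannot be weighed against that share. Both came from cKO replicate 3. The summed level of olfactory bulb genes was 157 CPM there and 4.45 to 6.33 CPM in the other cKO libraries. Pou3f3, a POU factor of upper layer neurons, had 125 CPM there and 158 to 163 CPM in the other cKO libraries. None of the 8 upper layer genes had a value this far from the rest of its cKO group. Genes outside the 45 sets also had such values. Nov, of the other layer 2 to 4 genes, had 129 CPM in cKO replicate 3 and 50.4 to 55.8 CPM in the other cKO libraries. Ttr, a choroid plexus gene, had 154 CPM in cKO replicate 4 and 7.10 to 12.8 CPM in the other cKO libraries. The count of 2 thus depends on which sets were examined.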

How the results depend on the processing

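The count of upper layer genes called was 0 in every setting except with no filter on low counts, where it was 1 (Scnn1a); that setting also called 1 of the other layer 2 to 4 genes (Inhba). Over all genes edgeR called 0, against 198 with no filter, 12 with DESeq2, 3 on log2(FPKM + 1) with no filter, 2 with the replicate block, 1 without WT 1 and cKO 3 together, and 0 to 3 with 1 library left out. The replicate block changed no call among the 8 genes. Rspo1 turned negative with limma-voom (-0.051), on FPKM (-0.049 with a pseudocount of 1 under either filter, -0.073 with 0.1) and with the block (-0.17). Without WT 1 and cKO 3 the signs turned for Rorb (-0.081), Lamp5 (0.046), Pou3f3 (0.052), Bcl11b (-0.092), Pcp4 (-0.012) and Tle4 (-0.024). Without cKO 2 and cKO 3, a setting chosen after seeing the data, they turned for Calb1 (-0.070), Lamp5 (0.13), Pou3f3 (0.044), Bcl11b (-0.24) and Tle4 (-0.13). Leaving out 1 library gave ranges across 0 for Rasgrf2 (-0.090 to 0.019), Rorb (-0.088 to 0.12), Otof (-0.33 to 0.058), Rspo1 (-0.12 to 0.24), Calb1 (-0.036 to 0.16), Lamp5 (-0.13 to 0.071), Pou3f3 (-0.069 to 0.047), Bcl11b (-0.053 to 0.21) and Tle4 (-0.043 to 0.11). Cux1, Cux2 and Scnn1a stayed positive in every setting run, with 0.06 to 0.17, 0.0016 to 0.21 and 0.40 (on log2(FPKM + 1)) to 1.18. Why these values move was not examined, so for each the cause was not tested. Scnn1a rests on 30 to 113 counts per library, where counting error alone is 12.2% of its level.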
